A study of Mus musculus with 6 samples.

Results

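Interferon response and antigen presentation genes were described in tumors of 2 mouse models of synovial sarcoma, a soft tissue cancer driven by the fusion of SS18 to an SSX gene. The 37 genes were taken as a named list by symbol, by a rule that uses no measured value, and all 37 were among the 17312 genes of the expression table. They fall into 8 genes of MHC class I antigen presentation, 7 genes of MHC class II antigen presentation and 22 interferon-induced genes. The mice of the first group carried a Cre-lox inducible SS18-SSX1 allele and those of the second a Cre-lox inducible SS18-SSX2 allele. In both groups TATCre, a Cre recombinase protein that can enter cells, was injected into the soft tissue in front of the tibia, and leg tumors were taken about 1 year later and frozen. The mice had no other treatment. There were 3 tumors per genotype, and total RNA depleted of ribosomal RNA was sequenced. The labels do not say whether each tumor came from a separate mouse, so each p-value reflects the spread among these samples alone. The sources used here give no mouse strain, sex or age at injection, and no sample without tumor was analysed, so levels can be compared only between tumors.

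MHC class I molecules, made of a heavy chain such as H2-K or H2-D and the light chain beta-2 microglobulin, show peptides from inside the cell to CD8 T cells, and nearly every cell type makes them. MHC class II molecules show peptides from engulfed material to CD4 T cells and are made mainly by dendritic cells, macrophages and B cells, in which the transactivator Ciita switches their genes on. Type I interferons act through a complex that holds Stat2 and Irf9 and binds interferon-stimulated response elements. Interferon gamma induces Irf1 and Ciita and can raise class I and class II genes in many cell types.

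Recovered read totals ran from 7285853 in SS18-SSX2 tumor 2 to 17546227 in SS18-SSX1 tumor 3. Levels are in FPKM, read counts scaled to the length of a gene and the library's total, and are given for tumors 1, 2 and 3 of each genotype in that order. Tle1, a marker used in the diagnosis of synovial sarcoma, was at 23.3 to 37.04 FPKM over the 6 tumors. Lists of cell type markers differed widely between tumors of the same genotype. The summed level of 8 skeletal muscle fibre markers was 7535 and 3485 FPKM in the tumors numbered 2 of SS18-SSX1 and SS18-SSX2, against 81.1 to 319.9 FPKM in the other 4, and that of 8 mast cell markers was 2519 FPKM in SS18-SSX1 tumor 3 against 13.8 to 99.4 FPKM elsewhere.

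The promoters of the members were searched for motifs through which these pathways are known to act. RefSeq promoter windows on build GRCm38.p6 matched 29 of the 37 members by symbol: 7 class I, 4 class II and 18 interferon-induced genes. In the 250 bases before the start, the response element motif, GAAA repeated after any 2 bases, was found on either strand in 10 of the 18 interferon-induced genes, 1 of the 7 class I genes (B2m) and 0 of the 4 class II genes, against 3.46% of all 27025 genes with a window. The Y box core ATTGG, the reverse complement of CCAAT and part of the SXY module that drives class I and class II genes, was found in 6 of 7 class I, 4 of 4 class II and 8 of 18 interferon-induced genes, against 37.5% of all genes. The cAMP response element core CGTCA, which matches the X2 box of the same module, was found in 5 of 7 class I, 1 of 4 class II and 3 of 18 interferon-induced genes, against 19.8% of all genes. The windows of Tap1 and Psmb9 overlap on opposite strands. Their ATTGG and CGTCA matches are the same bases, counted once for each gene in the class I counts. The STAT motif, TTC and GAA parted by any 3 bases, was found in 4 of 18 interferon-induced genes and 1 of 7 class I genes, against 8.13% of all genes. A match describes letters only, and no binding was measured. Only exact letters were counted, so stretches that resemble a motif, such as tttcacttct in H2-K1 below, were left out. A gene without a match may therefore still hold a variant of the element.

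Up to 150 bases before the start, without bases that GENCODE annotates as UTR, are shown for 2 class I and 2 class II genes to set the spacing of the motifs side by side. Capitals mark ATTGG and CGTCA on either strand.
B2m: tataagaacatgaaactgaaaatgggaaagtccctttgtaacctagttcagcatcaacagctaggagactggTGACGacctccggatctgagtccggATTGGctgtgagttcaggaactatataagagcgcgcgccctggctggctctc
H2-K1: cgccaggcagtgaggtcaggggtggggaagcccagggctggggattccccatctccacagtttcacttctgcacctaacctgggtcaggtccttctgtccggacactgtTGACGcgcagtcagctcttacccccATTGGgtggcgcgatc
H2-Aa: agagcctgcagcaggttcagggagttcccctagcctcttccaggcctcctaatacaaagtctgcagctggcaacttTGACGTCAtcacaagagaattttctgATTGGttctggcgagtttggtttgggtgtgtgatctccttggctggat
H2-Eb1: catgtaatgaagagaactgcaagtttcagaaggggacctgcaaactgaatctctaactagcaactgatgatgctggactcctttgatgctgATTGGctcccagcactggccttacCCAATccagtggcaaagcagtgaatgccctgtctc
In B2m, H2-D1, H2-K1 and H2-Aa CGTCA stands 20 to 30 bases before ATTGG (the H2-D1 window is not shown), an arrangement found in 0.810% of all genes with a window; this spacing was chosen after the positions had been seen. H2-Eb1 has the Y box core without CGTCA. The windows lie at chr2:122147537-122147685 on the plus strand for B2m, chr17:34000348-34000497 minus for H2-K1, chr17:34287824-34287973 minus for H2-Aa and chr17:34305717-34305866 plus for H2-Eb1. All were read 5′ to 3′ in the direction of transcription.

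For the interferon-induced genes the same stretch is shown for 4 members with the response element in capitals; on the other strand it reads as repeated TTTC.
Isg15: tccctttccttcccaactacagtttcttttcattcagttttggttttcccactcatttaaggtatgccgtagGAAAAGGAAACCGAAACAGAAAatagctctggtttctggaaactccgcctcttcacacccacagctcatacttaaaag
Ifit1: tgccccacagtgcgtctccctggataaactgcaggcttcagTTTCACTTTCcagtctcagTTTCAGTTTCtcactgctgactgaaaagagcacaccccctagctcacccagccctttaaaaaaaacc
Gbp3: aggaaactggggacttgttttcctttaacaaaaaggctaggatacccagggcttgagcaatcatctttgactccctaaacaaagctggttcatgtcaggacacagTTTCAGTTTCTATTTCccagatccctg
Oas1a: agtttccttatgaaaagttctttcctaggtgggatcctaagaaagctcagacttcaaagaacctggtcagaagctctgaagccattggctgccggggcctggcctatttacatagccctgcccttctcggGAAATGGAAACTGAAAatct
Isg15 holds overlapping copies in a single run, Ifit1 holds 2 separate copies, and Gbp3 and Oas1a hold overlapping copies. Their windows lie at chr4:156200819-156200968 minus, chr19:34640744-34640870 plus, chr3:142559894-142560025 plus and chr5:120907526-120907675 minus.

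The study's design sets SS18-SSX2 against SS18-SSX1 tumors. None of the members was shown to differ between the genotypes, and tumors of the same genotype lay far apart. Members with at least 1 FPKM in 3 or more tumors were tested, which were all 8 class I genes, all 7 class II genes and 13 of 22 interferon-induced genes. With limma on log2(FPKM + 1) over all 13873 genes that met this filter, 0 of 28 members passed an adjusted p under 0.05, where 0.0649% of all tested genes did (0.0432% higher and 0.0216% lower in SS18-SSX2), and their adjusted p-values ran from 0.997 to 0.999. At an unadjusted p under 0.05 limma called 0 of 28, against 4.97% of all tested genes, and voom on the recovered reads called 0 at either threshold. In 11 of 13 tested interferon-induced genes the SS18-SSX2 mean of log2(FPKM + 1) was the higher, with a median log2 fold change of 0.45, against 0.01 and 51.1% higher over all tested genes. Counts of higher and lower genes below use the same mean. For class I 5 of 8 such means were higher and the median was 0.09, and for class II 2 of 7 were higher and the median was −0.12. The direction depends on the kind of mean. Means of plain FPKM were higher in SS18-SSX2 for H2-Ab1, H2-Eb1, H2-DMa and Cd74, at 1.08, 1.04, 1.09 and 1.06 times SS18-SSX1, though their log2 means were lower. H2-D1, at 0.994 times, H2-DMb1, at 0.814 times, and Mx2, at 1.02 times, also went opposite to their log2 means. The sign of each median changed when single tumors were left out. Without SS18-SSX2 tumor 2 the medians were −0.16 for class I, −1.09 for class II and −0.10 for the interferon-induced genes. Without SS18-SSX1 tumor 2 they were 0.13, 0.55 and 0.70, and without SS18-SSX1 tumor 1 they were −0.27, −0.93 and 0.09. Without SS18-SSX1 tumor 3 the class I median was 0.45. Without SS18-SSX2 tumor 1 the medians were 0.24, 0.44 and 0.79, and without SS18-SSX2 tumor 3 they were 0.19, 0.17 and 0.72. The median SD within a genotype, on the log2 scale, was 0.77 for class I, 1.65 for class II and 0.86 for interferon-induced genes, against 0.41 for all tested genes.

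**Figure D1:**
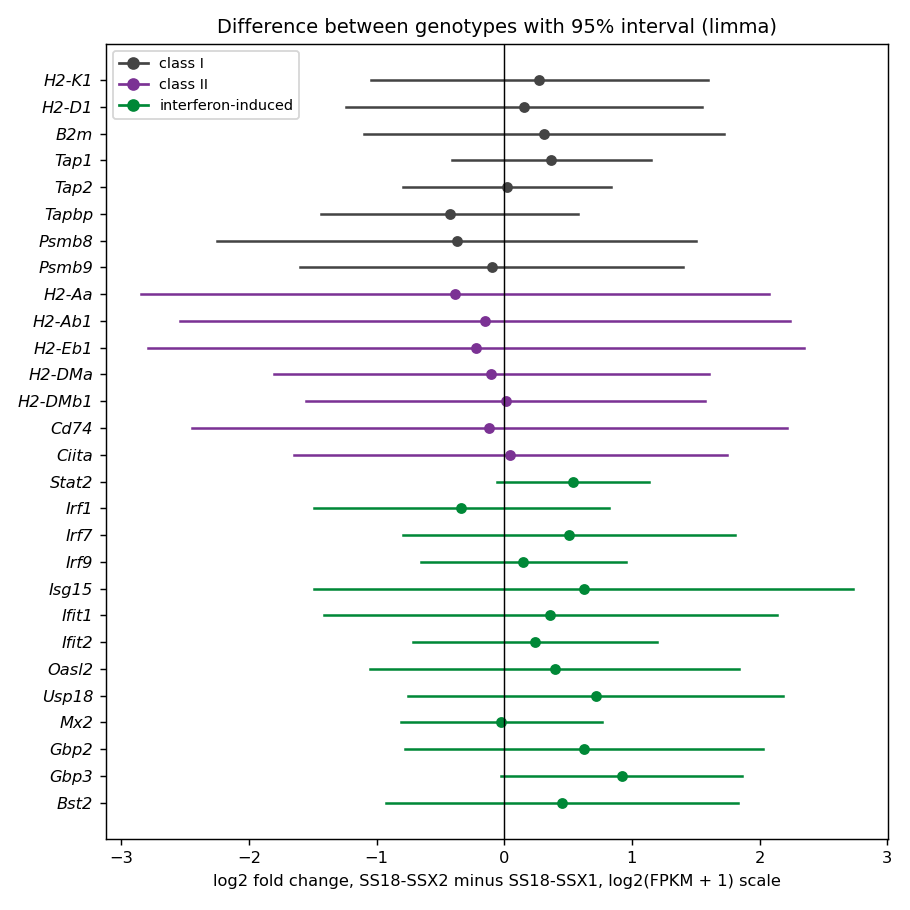
Log2 fold change of each tested member, SS18-SSX2 relative to SS18-SSX1 (x axis, log2(FPKM + 1) scale), with bars for the 95% interval from limma. All 28 intervals cross 0, and those of H2-Aa, H2-Eb1, H2-Ab1 and Cd74 are the widest.

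The class II genes had the widest spread of the 3 groups. H2-Aa and H2-Ab1 encode the alpha and beta chains of the I-A molecule and H2-Eb1 the beta chain of I-E. H2-Aa (ENSMUSG00000036594) stood at 16.8, 185 and 98.2 FPKM with SS18-SSX1 and 22.5, 219 and 27.4 FPKM with SS18-SSX2. H2-Ab1 stood at 13.7, 137 and 70.6 FPKM with SS18-SSX1 and 18.8, 194 and 26.5 FPKM with SS18-SSX2. H2-Eb1 stood at 23.8, 282 and 102 FPKM with SS18-SSX1 and 27.7, 352 and 44.0 FPKM with SS18-SSX2. All 3 chains were high in tumor 2 of each genotype, intermediate in SS18-SSX1 tumor 3 and low in the remaining 3 tumors, and the genotypes overlapped throughout. In bulk tumor RNA, fewer cells of a type and less RNA per cell cannot be told apart. The highest tumor exceeded the lowest 13.1-fold for H2-Aa, 14.1-fold for H2-Ab1 and 14.8-fold for H2-Eb1. The log2 fold change of H2-Aa between genotypes was −0.38 (SE 1.06), with a 95% interval from −2.84 to 2.07, an interval that includes changes of several fold in either direction.

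Cd74, the invariant chain that escorts class II molecules and blocks their groove, had the highest level per length of the class II members. Its level was 50.1, 459 and 169.8 FPKM with SS18-SSX1 and 63.2, 568 and 85.5 FPKM with SS18-SSX2. It took the same order as the chains, high in both tumors numbered 2, with a log2 fold change of −0.12 (SE 1.01). Ciita, the transactivator of class II genes, was at 0.572, 4.59 and 1.04 FPKM with SS18-SSX1 and 0.576, 6.87 and 0.597 FPKM with SS18-SSX2. Ciita was several times higher in the tumors numbered 2 than in the other 4, and the level in SS18-SSX1 tumor 3 was far nearer to the low tumors for Ciita than for the chains. The genotypes overlapped, with a log2 fold change of 0.05 (SE 0.73).

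H2-DMa and H2-DMb1 encode the chains of H2-M, which removes the invariant chain peptide so that antigen peptides can bind. H2-DMa was at 4.81, 21.4 and 7.68 FPKM with SS18-SSX1 and 3.69, 27.3 and 5.86 FPKM with SS18-SSX2. H2-DMb1 was at 5.28, 26.8 and 40.4 FPKM with SS18-SSX1 and 14.2, 30.2 and 14.7 FPKM with SS18-SSX2. H2-DMa was high in both tumors numbered 2 but, unlike the other class II genes, lowest in SS18-SSX2 tumor 1, and H2-DMb1 was highest in SS18-SSX1 tumor 3. The ratio of H2-DMb1 to H2-DMa was 1.10, 1.26 and 5.26 with SS18-SSX1 and 3.85, 1.11 and 2.50 with SS18-SSX2. H2-DMb1 matches H2-DMb2 at 95.7% over 1081 bases of its transcript, so reads of the pair may have been divided between them by the authors' counting, and H2-DMa overlaps an exon of Brd2 (a gene named after its values were seen) on the opposite strand; both values are uncertain for that reason. By contrast the ratio of H2-Aa to H2-Ab1 stayed between 1.03 and 1.39 in all 6 tumors.

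Class I genes varied less, and their highest tumor differed from gene to gene. H2-K1 and H2-D1 encode the classical heavy chains. H2-K1 (ENSMUSG00000061232, chr17:33996017-34000347, minus strand) stood at 45.1, 118 and 176 FPKM with SS18-SSX1 and 91.9, 210.3 and 86.6 FPKM with SS18-SSX2. H2-D1 (chr17:35262730-35267499, plus strand) stood at 107, 259 and 463 FPKM with SS18-SSX1 and 197, 403 and 225 FPKM with SS18-SSX2. Both were lowest in SS18-SSX1 tumor 1 and high in SS18-SSX1 tumor 3 and SS18-SSX2 tumor 2, and the genotypes overlapped. Their log2 fold changes were 0.27 (SE 0.57) and 0.15 (SE 0.60). H2-D1 and H2-K1 transcripts match at 90.6% over 1404 bases, so their reads may be split between them and with other class I genes; the ratio of H2-D1 to H2-K1 lay between 1.92 and 2.64. B2m, the light chain of every class I molecule (chr2:122147686-122153083, plus strand), was at 275, 328 and 810.2 FPKM with SS18-SSX1 and 717, 554 and 352 FPKM with SS18-SSX2. B2m was high in SS18-SSX1 tumor 3, SS18-SSX2 tumor 1 and SS18-SSX2 tumor 2, with overlapping genotypes and a log2 fold change of 0.31 (SE 0.61). Relative to the summed heavy chains, B2m was 1.80, 0.868 and 1.27 with SS18-SSX1 and 2.48, 0.903 and 1.13 with SS18-SSX2, lowest in the tumors numbered 2.

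Tap1 and Tap2 form the transporter that brings peptides into the endoplasmic reticulum, and Tapbp encodes tapasin, which ties class I molecules to it. Tap1 was at 6.84, 15.2 and 14.2 FPKM with SS18-SSX1 and 12.6, 17.9 and 15.1 FPKM with SS18-SSX2. Tap2 was at 13.4, 23.5 and 27.1 FPKM with SS18-SSX1 and 14.4, 26.9 and 23.2 FPKM with SS18-SSX2. SS18-SSX1 tumor 1 was the lowest for both, and the other 5 tumors lay within a narrow range for Tap1. The log2 fold changes were 0.37 (SE 0.34) and 0.02 (SE 0.35). Tapbp was at 289, 150.1 and 189 FPKM with SS18-SSX1 and 96.3, 213 and 163 FPKM with SS18-SSX2. Tapbp was the exception among class I genes: it was highest in SS18-SSX1 tumor 1, where the other 7 were lowest, and its log2 fold change was −0.43 (SE 0.43). The ratio of Tapbp to Tap1 was 42.2, 9.89 and 13.3 with SS18-SSX1 and 7.63, 11.9 and 10.8 with SS18-SSX2. Tapbp overlaps an exon of Zbtb22 (also named after its values were seen) on the same strand and Tap1 overlaps an exon of Psmb9 on the opposite strand; the sources used here do not say whether reads were counted by strand.

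Psmb8 and Psmb9 encode interferon-inducible catalytic subunits that replace Psmb5 and Psmb6 to form the immunoproteasome, which cuts peptides suited to class I. Psmb8 was at 4.23, 28.5 and 28.9 FPKM with SS18-SSX1 and 6.11, 32.5 and 7.89 FPKM with SS18-SSX2. Psmb9 was at 2.79, 10.5 and 16.8 FPKM with SS18-SSX1 and 4.63, 16.7 and 5.37 FPKM with SS18-SSX2. Both were high in tumor 2 of each genotype and in SS18-SSX1 tumor 3, and low in the other 3 tumors, with overlapping genotypes. Their log2 fold changes were −0.37 (SE 0.81) and −0.10 (SE 0.65). The RNA of each of these subunits was set against that of its counterpart as a ratio of levels per length. Exchange of subunits in the protein complex was not measured. Psmb8 over Psmb5 was 0.539, 0.964 and 1.67 with SS18-SSX1 and 0.250, 0.990 and 0.223 with SS18-SSX2. Psmb9 over Psmb6 was 0.0763, 0.117 and 0.155 with SS18-SSX1 and 0.0821, 0.199 and 0.0788 with SS18-SSX2. Psmb10 over Psmb7, the remaining pair, was 0.248, 0.855 and 0.455 with SS18-SSX1 and 0.265, 0.865 and 0.504 with SS18-SSX2. All 3 ratios were higher in SS18-SSX2 tumor 2 than in SS18-SSX2 tumors 1 and 3, while SS18-SSX1 tumor 3 had the highest Psmb8 ratio. The divisor of the first ratio, Psmb5, itself varied and stood at 7.85, 29.5 and 17.3 FPKM with SS18-SSX1 and 24.5, 32.8 and 35.4 FPKM with SS18-SSX2.

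**Figure D2:**
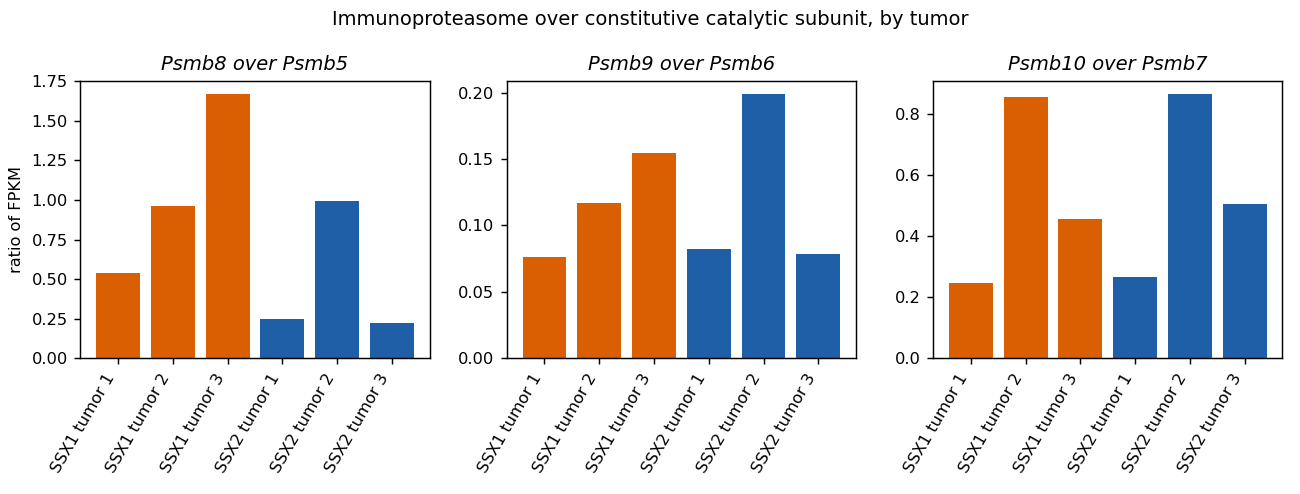
Ratio of FPKM of an immunoproteasome subunit to the constitutive subunit it replaces (y axis) in each of the 6 tumors (bars, SS18-SSX1 in orange and SS18-SSX2 in blue). SS18-SSX2 tumor 2 has the highest Psmb9 and Psmb10 ratios and SS18-SSX1 tumor 3 the highest Psmb8 ratio, at 1.67.

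**Figure D3:**
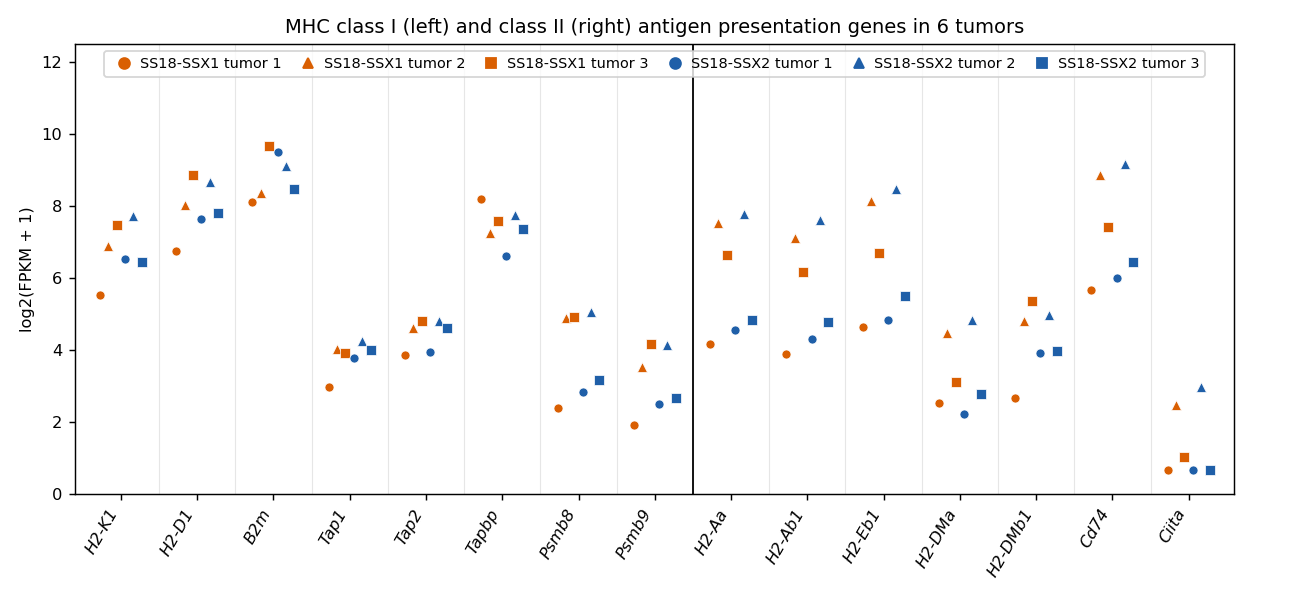
Level of each class I (left) and class II (right) member as log2(FPKM + 1) (y axis), with 1 point per tumor. The class II points spread over a wider range, with tumor 2 of each genotype at the top for all but H2-DMb1.

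Among the interferon-induced genes, Stat2 and Gbp3 had the smallest p-values between genotypes. Stat2 (ENSMUSG00000040033, chr10:128270559-128292849, plus strand), the partner of Irf9, was at 10.2, 9.003 and 14.5 FPKM with SS18-SSX1 and 15.2, 17.4 and 16.7 FPKM with SS18-SSX2. Every SS18-SSX2 tumor was above every SS18-SSX1 tumor, though 15.2 and 14.5 FPKM, the nearest pair, were close. The log2 fold change was 0.54 (SE 0.26), with a 95% interval from −0.06 to 1.13, an unadjusted p of 0.0706 and an adjusted p of 0.997 by limma. Irf9 was at 8.91, 15.6 and 18.1 FPKM with SS18-SSX1 and 12.9, 21.9 and 12.4 FPKM with SS18-SSX2. Its genotypes overlapped, with a log2 fold change of 0.15 (SE 0.35). Irf7, which amplifies type I interferon production, was at 1.91, 4.06 and 6.83 FPKM with SS18-SSX1 and 3.65, 14.3 and 3.67 FPKM with SS18-SSX2. It was highest in SS18-SSX2 tumor 2 and next in SS18-SSX1 tumor 3, and its log2 fold change was 0.51 (SE 0.56). Irf1, induced by interferon gamma, was at 8.37, 21.6 and 12.0 FPKM with SS18-SSX1 and 6.68, 21.2 and 6.94 FPKM with SS18-SSX2. The tumors numbered 2 were nearly equal for Irf1 and above the other 4, and its log2 fold change was −0.34 (SE 0.50).

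Gbp3 and Gbp2 encode guanylate-binding proteins, GTPases that attack vacuoles of intracellular microbes. Gbp3 (ENSMUSG00000028268, chr3:142560026-142573209, plus strand) was at 1.28, 3.77 and 3.33 FPKM with SS18-SSX1 and 4.53, 9.36 and 4.56 FPKM with SS18-SSX2. Its genotypes did not overlap, with SS18-SSX2 tumors 1 and 3 just above SS18-SSX1 tumor 2, and it had the largest log2 fold change of the tested members, 0.92 (SE 0.41), with a 95% interval from −0.02 to 1.87. By limma its unadjusted p was 0.0548 and its adjusted p 0.997. Its unadjusted p fell under 0.05 with upper quartile scaling, after rescaling to TPM and without SS18-SSX1 tumor 2, and that of Stat2 did so without SS18-SSX1 tumor 3. Over all alternatives the limma adjusted p was at least 0.743 for Gbp3 and at least 0.667 for Stat2. Stat2 and Gbp3 made 2 of 28 tested members whose tumors did not overlap between genotypes, both higher in SS18-SSX2, where 4.97% of all tested genes were in that position, 3.76% in the opposite and 8.72% in either. Gbp2 was at 2.81, 14.2 and 10.5 FPKM with SS18-SSX1 and 9.11, 25.7 and 8.06 FPKM with SS18-SSX2. It overlapped, with a log2 fold change of 0.63 (SE 0.61).

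Isg15, a ubiquitin-like protein, and Usp18, the protease that removes it and also damps the type I receptor, set SS18-SSX2 tumor 2 apart. Isg15 (chr4:156199424-156200818, minus strand) was at 5.07, 24.4 and 8.90 FPKM with SS18-SSX1 and 4.64, 70.8 and 12.7 FPKM with SS18-SSX2. Usp18 was at 1.48, 8.78 and 4.35 FPKM with SS18-SSX1 and 4.12, 17.6 and 5.04 FPKM with SS18-SSX2. Both were highest in SS18-SSX2 tumor 2 and next in SS18-SSX1 tumor 2, and the genotypes overlapped. Isg15 was 15.3-fold higher in the highest than in the lowest tumor and Usp18 11.9-fold. Their log2 fold changes were 0.62 (SE 0.91) and 0.72 (SE 0.63). Without SS18-SSX2 tumor 2 the log2 fold change of Isg15 was −0.39 and that of Usp18 was 0.13. The response elements in the Isg15 promoter are those shown above.

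The Ifit genes encode proteins that bind foreign RNA. Ifit1 was at 1.61, 5.80 and 2.15 FPKM with SS18-SSX1 and 1.66, 16.5 and 1.55 FPKM with SS18-SSX2. Ifit2 was at 0.918, 3.70 and 1.64 FPKM with SS18-SSX1 and 3.07, 2.90 and 1.47 FPKM with SS18-SSX2. Ifit3 was at 0.215, 4.41 and 0.621 FPKM with SS18-SSX1 and 0.907, 2.28 and 0.279 FPKM with SS18-SSX2. Ifit1 was far higher in SS18-SSX2 tumor 2 than elsewhere, but Ifit2 and Ifit3 were highest in SS18-SSX1 tumor 2, so these neighbours did not share an order. The log2 fold changes were 0.36 (SE 0.77) for Ifit1 and 0.24 (SE 0.41) for Ifit2, and Ifit3 was too low in most tumors to be tested. Ifit3 matches Ifit3b (named after its values were seen) at 97.8% over 1700 bases, which makes its level uncertain.

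Oligoadenylate synthetases and their relatives sense double-stranded RNA. Oasl2 was at 1.18, 5.49 and 2.84 FPKM with SS18-SSX1 and 2.15, 11.3 and 2.17 FPKM with SS18-SSX2. It was highest in SS18-SSX2 tumor 2, with overlapping genotypes and a log2 fold change of 0.39 (SE 0.62). Oas1a, whose promoter is shown above, was at 0.0398, 0.539 and 1.81 FPKM with SS18-SSX1 and 0.292, 3.42 and 0.333 FPKM with SS18-SSX2. Oasl1 was at 0.317, 0.724 and 1.20 FPKM with SS18-SSX1 and 0.871, 4.47 and 0.721 FPKM with SS18-SSX2. Both low genes peaked in SS18-SSX2 tumor 2 and were next in SS18-SSX1 tumor 3. Bst2, or tetherin, which holds budding viruses at the cell surface, was at 15.1, 30.5 and 21.3 FPKM with SS18-SSX1 and 13.1, 77.8 and 25.3 FPKM with SS18-SSX2. It had the highest level per length of the interferon-induced members in every tumor but SS18-SSX2 tumor 1. It was highest in SS18-SSX2 tumor 2 and overlapped between genotypes, with a log2 fold change of 0.45 (SE 0.60). Mx2, of the Mx family of antiviral GTPases, was at 2.02, 2.91 and 2.78 FPKM with SS18-SSX1 and 1.62, 4.09 and 2.19 FPKM with SS18-SSX2. It ranged only 2.52-fold over the 6 tumors, with a log2 fold change of −0.02 (SE 0.34).

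The remaining members were low. Mx1 was at 0.165, 0.558 and 0.109 FPKM with SS18-SSX1 and 0.0755, 1.09 and 0.115 FPKM with SS18-SSX2. Rsad2, or viperin, was at 0.451, 0.722 and 1.57 FPKM with SS18-SSX1 and 0.334, 0.983 and 0.338 FPKM with SS18-SSX2. Zbp1, a sensor of Z-form nucleic acid, was at 0.0426, 0.762 and 0.371 FPKM with SS18-SSX1 and 0.195, 1.79 and 0.178 FPKM with SS18-SSX2. Mx1 and Zbp1 were highest in SS18-SSX2 tumor 2 and next in SS18-SSX1 tumor 2, whereas Rsad2 was highest in SS18-SSX1 tumor 3. Ifi44 was at 0.196, 0.297 and 0.382 FPKM with SS18-SSX1 and 0.551, 1.64 and 0.273 FPKM with SS18-SSX2. Cxcl10, a chemokine that draws activated T cells, was at 0.198, 0.478 and 0.525 FPKM with SS18-SSX1 and 0.679, 1.26 and 0.550 FPKM with SS18-SSX2. Its groups did not overlap, but the nearest values, in SS18-SSX1 tumor 3 and SS18-SSX2 tumor 3, rested on 14 and 12 reads, and it was not tested. Cxcl9, a chemokine induced by interferon gamma, was listed at 0 in SS18-SSX1 tumor 1, where a count of 0 allows up to 0.0776 FPKM, at 1.63 and 0.0981 FPKM in the other SS18-SSX1 tumors, and at 0.237, 2.13 and 0.0719 FPKM with SS18-SSX2. It was above 1 FPKM in the tumors numbered 2 and in no other. Across all 37 members, 8 had under 20 reads in at least 1 tumor, so their low values carry wide counting error.

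**Figure D4:**
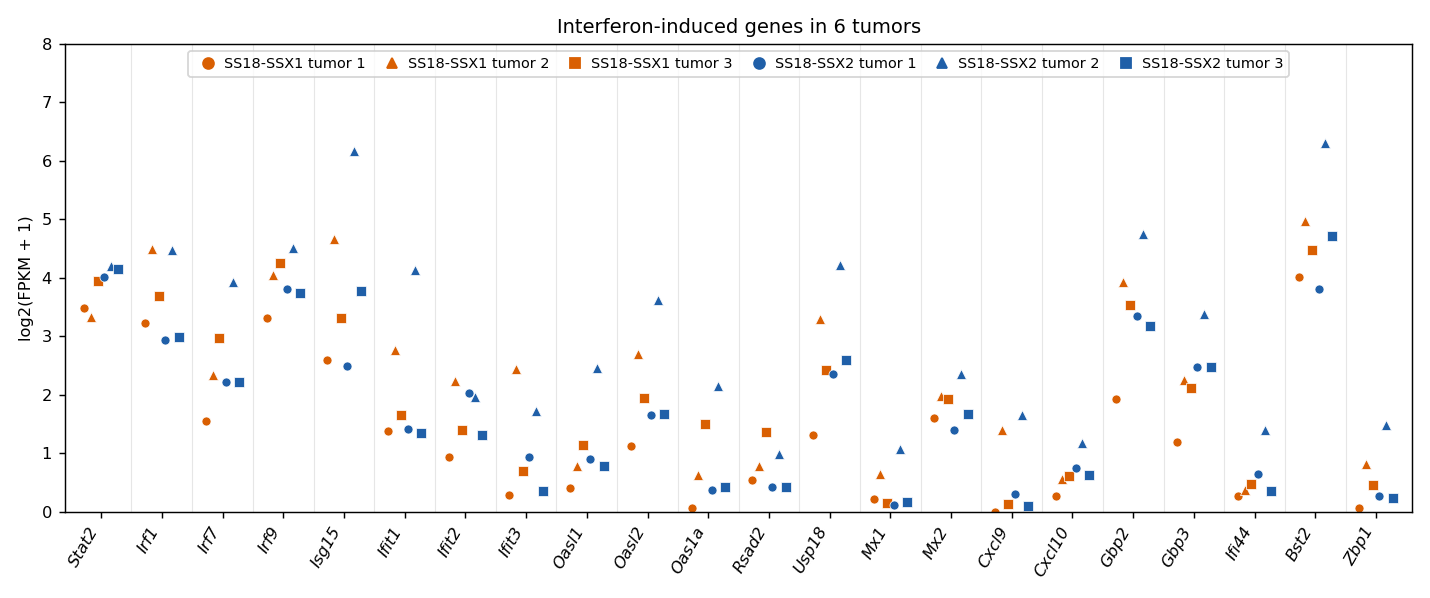
Level of each interferon-induced member as log2(FPKM + 1) (y axis), with 1 point per tumor. SS18-SSX2 tumor 2 is the highest point for 18 of the 22 genes. The points of the genotypes do not overlap for Stat2, Gbp3 and Cxcl10, of which Cxcl10 was not tested and rests on few reads. Among all tested genes 8.72% do not overlap in either direction.

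For most members the same tumors stood at the top and at the bottom. SS18-SSX2 tumor 2 was the highest of the 6 for 27 of 37 members, where it was the highest for 17.2% of all tested genes and 18.3% of the whole table. By group this was 3 of 8 class I, 6 of 7 class II and 18 of 22 interferon-induced genes. SS18-SSX1 tumor 1 was the lowest for 27 of 37 members, against 17.3% of all tested genes, with 7 of 8, 6 of 7 and 14 of 22 by group. The pair of tumors numbered 2 filled the top places for 19 of 37 members, against 9.78% of all tested genes, with 1 of 8, 6 of 7 and 12 of 22. Class I differed in that SS18-SSX1 tumor 3 was the highest for 4 of 8, namely H2-D1, B2m, Tap2 and Psmb9, against 24.6% of all tested genes. Genes of a shared pathway are not independent of each other, and these counts describe 6 tumors.

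The summed level of the 7 class II members was 115, 1116 and 489 FPKM with SS18-SSX1 and 151, 1398 and 205 FPKM with SS18-SSX2, a 12.1-fold range. That of the 8 class I members was 744, 933 and 1725 FPKM with SS18-SSX1 and 1139, 1475 and 878 FPKM with SS18-SSX2, a 2.32-fold range, and that of the 22 interferon-induced members was 62.5, 159.9 and 116 FPKM with SS18-SSX1 and 86.5, 330.0 and 106 FPKM with SS18-SSX2, a 5.28-fold range. FPKM summed over all tested genes also differed, from 258092 in SS18-SSX2 tumor 1 to 439249 in SS18-SSX2 tumor 2, a 1.70-fold range. In SS18-SSX1 tumor 1 this total was 273490. The member sums and the values of single members are not scaled to these totals. Part of their range and of the order of tumors may follow the totals, which was not tested. The summed leukocyte, macrophage, dendritic and B cell markers were, like the class II and interferon-induced sums, highest in SS18-SSX2 tumor 2 and lowest in SS18-SSX1 tumor 1. Their part in the result was not tested. Single markers did not all take this order. SS18-SSX2 tumor 2 was highest for 3 of 6 leukocyte, 11 of 12 macrophage, 7 of 10 dendritic and 9 of 9 B cell and plasma cell markers. SS18-SSX1 tumor 1 was lowest for 4 of 6, 10 of 12, 4 of 10 and 3 of 9 in that order. The class I sum was higher in SS18-SSX2 tumor 1 than in SS18-SSX1 tumor 2, with B2m at 717 and 328 FPKM in that order. Every other class I member was lower in SS18-SSX2 tumor 1 than in SS18-SSX1 tumor 2, as the sums of these markers were. The mean log2(FPKM + 1) of the class I members was also lower there, at 5.41 against 5.94. The 3 measured neutrophil markers of 6, S100a8, S100a9 and Csf3r, summed to 0.352, 9.75 and 4.97 FPKM with SS18-SSX1 and 1.85, 2.52 and 2.40 FPKM with SS18-SSX2, and like the mast cell markers they were not highest in SS18-SSX2 tumor 2. The 6 leukocyte markers, among them Ptprc, Cd53, Laptm5 and Coro1a, summed to 8.07, 39.3 and 45.1 FPKM with SS18-SSX1 and 13.4, 70.9 and 12.3 FPKM with SS18-SSX2. The 12 macrophage and monocyte markers, led by Cd68, Csf1r, Adgre1 and Cd14, summed to 54.4, 381 and 406 FPKM with SS18-SSX1 and 158, 663 and 170.4 FPKM with SS18-SSX2. Both lists were high in tumor 2 of each genotype and SS18-SSX1 tumor 3 and were above 0 for every marker in every tumor. The 10 dendritic cell markers, among them Itgax, Flt3, Xcr1 and Clec9a, summed to 5.83, 14.2 and 10.9 FPKM with SS18-SSX1 and 7.43, 24.8 and 13.4 FPKM with SS18-SSX2, also with none at 0.

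The summed lymphocyte markers were highest in the tumors numbered 2. The 9 B cell and plasma cell markers, among them Ms4a1, Cd79a and Cd79b, summed to 5.22, 119 and 9.50 FPKM with SS18-SSX1 and 8.86, 981 and 10.1 FPKM with SS18-SSX2, most of it immunoglobulin RNA. Ms4a1 and Cd79a were listed at 0 in SS18-SSX1 tumor 3. Igkc alone gave 71.1 and 671 FPKM in the tumors numbered 2 and was named after its values were seen. Of 11 T and NK cell markers 9 were measured, and they summed to 2.078, 9.27 and 1.96 FPKM with SS18-SSX1 and 1.45, 15.4 and 1.13 FPKM with SS18-SSX2. Among them Cd3d was at 0.0568, 1.04 and 0.0431 FPKM with SS18-SSX1 and 0.104, 0.830 and 0.105 FPKM with SS18-SSX2 and Cd3e at 0.157, 0.607 and 0.119 FPKM with SS18-SSX1 and 0.0959, 1.82 and 0.0485 FPKM with SS18-SSX2, and the tumors numbered 2 were the only ones with none of the 9 at 0. Those at 0 were Cd3g and Trbc2 in SS18-SSX1 tumor 1, Cd8a and Trac in SS18-SSX1 tumor 3, Trbc2 in SS18-SSX2 tumor 1, and Cd8b1 and Trbc2 in SS18-SSX2 tumor 3. For class II, whose genes B cells and macrophages use, the sum was also set against these lists. Class II over the macrophage list was 2.12, 2.93 and 1.21 with SS18-SSX1 and 0.955, 2.11 and 1.20 with SS18-SSX2, and over the leukocyte list it was 14.3, 28.4 and 10.8 with SS18-SSX1 and 11.3, 19.7 and 16.6 with SS18-SSX2. The ratio to the macrophage list ranged 3.06-fold over tumors, and was lower in SS18-SSX1 tumor 3 than in either tumor numbered 2. Muscle fibre markers were also high in the tumors numbered 2, and the 6 endothelial markers, among them Pecam1, Cdh5, Kdr and Tek, were low there at 72.4, 11.6 and 41.2 FPKM with SS18-SSX1 and 88.2, 18.8 and 77.5 FPKM with SS18-SSX2; the part of these cells in the members' levels was not tested.

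**Figure D5:**
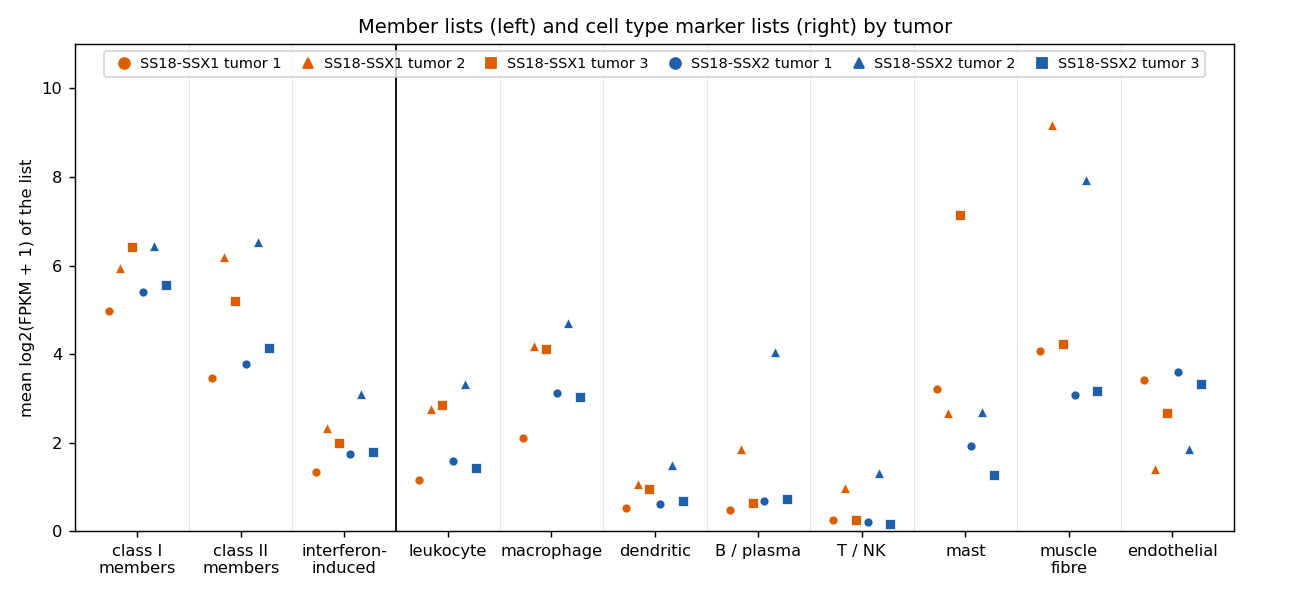
Mean log2(FPKM + 1) of each member group (left) and cell type marker list (right) (y axis), with 1 point per tumor. The class II, leukocyte and macrophage lists are high in tumor 2 of each genotype and in SS18-SSX1 tumor 3, and SS18-SSX1 tumor 1 is the lowest for all 3 member groups.

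The rest of the pathway gave 112 measured genes of 127 listed, of which 92 were tested. By limma 0 of the 92 passed the adjusted threshold and 0 had an unadjusted p under 0.05, with 46 higher and 46 lower in SS18-SSX2 and a median log2 fold change of 0.00583, against 0.00955 for all tested genes. None of 9 listed interferon genes, Ifnb1 and Ifng included, is in the table, so they were not analysed here. Of the 18 receptor and signalling genes 10 were higher and 8 lower. Ifnar1, of the type I receptor, was at 27.0, 20.9 and 29.8 FPKM with SS18-SSX1 and 27.5, 17.6 and 23.7 FPKM with SS18-SSX2, and Ifngr1, of the type II receptor, was at 7.39, 14.8 and 24.4 FPKM with SS18-SSX1 and 10.7, 15.2 and 10.2 FPKM with SS18-SSX2. Ifnar1 varied little while Ifngr1 was low in SS18-SSX1 tumor 1, as were many members. Jak1, the kinase shared by both receptors, was at 47.6, 38.4 and 34.8 FPKM with SS18-SSX1 and 46.0, 47.1 and 40.6 FPKM with SS18-SSX2, a narrow range. Irf8, a factor of myeloid cells, was at 0.490, 3.53 and 2.03 FPKM with SS18-SSX1 and 0.917, 6.79 and 1.16 FPKM with SS18-SSX2 and took the order of the class II genes.

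The regulators of the presentation genes did not all follow their targets. Nlrc5, the class I transactivator, was at 0.471, 5.30 and 3.63 FPKM with SS18-SSX1 and 5.04, 9.10 and 5.12 FPKM with SS18-SSX2. It was far lower in SS18-SSX1 tumor 1 than in the other 5 tumors, with a log2 fold change of 1.04 (SE 0.55) and overlapping genotypes. Rfx5, of the factor that binds the X box of class I and class II promoters, was at 13.1, 8.02 and 9.22 FPKM with SS18-SSX1 and 10.5, 9.51 and 10.1 FPKM with SS18-SSX2. It varied little and was highest in SS18-SSX1 tumor 1, where most class I and class II members were lowest. Rfxap, its partner, was at 11.9, 10.3 and 12.6 FPKM with SS18-SSX1 and 9.09, 9.43 and 7.08 FPKM with SS18-SSX2, lower in every SS18-SSX2 tumor, with a log2 fold change of −0.41 (SE 0.24). Of the 18 other class I genes 7 were higher and 11 lower, and of the 6 other class II genes 3 were higher and 3 lower. H2-Q7, a nonclassical class I gene, was at 0.405, 5.72 and 2.98 FPKM with SS18-SSX1 and 2.24, 7.88 and 4.07 FPKM with SS18-SSX2, lowest in SS18-SSX1 tumor 1 as H2-K1 and H2-D1 were. Ifi30, a thiol reductase of the class II pathway, was at 47.4, 38.5 and 21.4 FPKM with SS18-SSX1 and 24.4, 32.1 and 20.8 FPKM with SS18-SSX2, and unlike the class II members it was highest in SS18-SSX1 tumor 1.

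Of the interferon-induced genes outside the member list, 13 of 24 tested were higher, and of the genes chiefly induced by interferon gamma 3 of 10 were higher. Gbp4, another guanylate-binding protein, was at 1.69, 1.39 and 1.62 FPKM with SS18-SSX1 and 0.470, 1.15 and 0.445 FPKM with SS18-SSX2, lower in every SS18-SSX2 tumor and so opposite in direction to Gbp3, with a log2 fold change of −0.63 (SE 0.30). Gbp9 was at 4.17, 3.01 and 1.90 FPKM with SS18-SSX1 and 1.32, 2.38 and 1.17 FPKM with SS18-SSX2, with overlapping genotypes. Ube2l6, the enzyme that joins Isg15 to its targets, was at 3.46, 9.75 and 13.3 FPKM with SS18-SSX1 and 6.62, 31.6 and 12.3 FPKM with SS18-SSX2, with the same highest tumor as Isg15. Lgals3bp, a secreted glycoprotein, was at 109.7, 79.2 and 57.0 FPKM with SS18-SSX1 and 26.9, 113 and 29.4 FPKM with SS18-SSX2, high in SS18-SSX1 tumor 1 and in the tumors numbered 2. Samhd1, named after its values were seen, was the 1 gene of all these lists higher in every SS18-SSX2 tumor, while Gbp4, Rfxap and Psma3 were the 3 lower in every SS18-SSX2 tumor, out of 92 tested and against 4.97% and 3.76% of all tested genes. All 10 tested nucleic acid sensors and their helpers were higher in SS18-SSX2, where 51.1% of all tested genes were, with a median log2 fold change of 0.20, yet 0 of 10 passed an adjusted or unadjusted threshold by limma. The mean log2(FPKM + 1) of the 12 measured sensor genes was 3.06 in SS18-SSX2 tumor 2, while SS18-SSX2 tumors 1 and 3, at 2.40 and 2.26, lay within the SS18-SSX1 range of 2.18 to 2.70. Cgas, the sensor of cytosolic DNA, was at 0.965, 0.616 and 1.49 FPKM with SS18-SSX1 and 1.50, 1.93 and 1.06 FPKM with SS18-SSX2, Ifih1, a sensor of long double-stranded RNA, was at 2.38, 3.24 and 3.04 FPKM with SS18-SSX1 and 2.93, 7.38 and 2.56 FPKM with SS18-SSX2, and Trim25, which activates the RNA sensor Ddx58, was at 1.11, 1.12 and 5.07 FPKM with SS18-SSX1 and 1.50, 13.1 and 1.65 FPKM with SS18-SSX2. Cgas and Ifih1 overlapped between genotypes, and Trim25 was high in SS18-SSX2 tumor 2 and SS18-SSX1 tumor 3 only.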

How the data were processed

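The deposited table gives FPKM per mouse Ensembl gene for 6 tumors, made by the authors; per the submitters' processing notes, Novoalign 2.08.03 and mm10 were used, with no role or order stated. The sources used here do not give the counter, gene models, strand handling or filters. Of 17312 genes, 17029 matched a GENCODE M21 symbol on GRCm38, the same build as mm10. Low FPKM values step by whole reads, which gave each tumor's read total, and whole reads (within 0.02) for 17311 genes. By tumor, 68.3% to 76.6% of the low values of single-exon genes used for this were whole. Reads rest on the annotated length for 14 members. For 23 members they rest on the smallest length that gives whole reads, which may not be the true length, so those counts are less certain. Depth was lowest in SS18-SSX2 tumor 2; counting floors and intervals (95%, floor of 3 reads) cover counting error only.

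Genes with at least 1 FPKM in 3 tumors were tested with limma 3.58.1 (R 4.3.3, trend and Benjamini-Hochberg adjustment over 13873 genes) on log2(FPKM + 1), SS18-SSX2 against SS18-SSX1, with no covariate. Fold changes are on that scale, which understates changes of low genes. The script was tested on simulated data. The labels give no sequencing batch or date. The 17 alternatives changed the pseudocount, filter, scaling, variance model and tool, added a replicate block, or left out tumors. Named genes are all members, the 3 tested genes with the smallest p and the defining molecules of each other pathway list, and the first 4 markers of each cell type list. Members and lists were chosen with earlier results of these data known. Tumors that share a number were checked for pairing by the correlation of their deviations from the genotype means, which was 0.38, 0.31 and −0.28 for numbers 1, 2 and 3. Tumors of unlike number gave −0.44 to 0.23. With means of 3 tumors these deviations are not independent, so the check cannot decide on pairing, and the numbers were not taken as pairs. In the sample labels the tumors numbered 2 share the letter A and those numbered 3 the letter B, with no meaning given. Promoter motifs were sought in the 250 bases before the RefSeq start, so that bases after it were left out. Some genes are not reported here. Near copies were sought with blastn 2.17.0 (at least 90% identity over 300 bases).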

Additional observations from a re-analysis of the deposited data

How the results depend on the processing

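No member passed an adjusted p under 0.05 by limma in any of the 17 alternatives, and at an unadjusted p under 0.05 at most 1 did. With the replicate block, 0 members were called, 1 (Gbp3) had an unadjusted p under 0.05, and the group medians stayed at 0.09, −0.12 and 0.45; same-numbered tumors were not taken as pairs. Leaving out 1 tumor at a time moved the median log2 fold change from −0.27 to 0.45 for class I, from −1.09 to 0.55 for class II and from −0.10 to 0.79 for interferon-induced genes. Without both tumors numbered 2 the medians were −0.07, −0.33 and 0.13. The sign held in every alternative for 7 of 28 members, B2m, Gbp2, Gbp3, Stat2, Tap1, Tapbp and Usp18, and changed for the other 21, whose log2 fold changes with 1 tumor left out ran as follows: H2-K1 −0.28 to 0.69, H2-D1 −0.41 to 0.64, Tap2 −0.27 to 0.27, Psmb8 −1.21 to 0.0519, Psmb9 −0.74 to 0.38, H2-Aa −1.42 to 0.33, H2-Ab1 −1.17 to 0.55, H2-Eb1 −1.32 to 0.61, H2-DMa −0.88 to 0.45, H2-DMb1 −0.80 to 0.56, Cd74 −1.09 to 0.65, Ciita −0.72 to 0.60, Irf1 −0.84 to 0.00664, Irf7 −0.0651 to 0.85, Irf9 −0.13 to 0.34, Isg15 −0.39 to 1.45, Ifit1 −0.55 to 0.83, Ifit2 −0.0520 to 0.59, Oasl2 −0.26 to 0.78, Mx2 −0.30 to 0.18 and Bst2 −0.22 to 1.02. Without both tumors numbered 2 the log2 fold change was −0.000872 for H2-K1, −0.0879 for H2-D1, −0.0602 for Tap2, −0.0637 for H2-DMb1, −0.175 for Ciita, −0.0370 for Irf7, −0.0103 for Irf9 and −0.14 for Ifit1. With voom it was −0.0765 for H2-DMb1 and −0.31 for Ciita, for which a pseudocount of 0.1 gave −0.0436 and quantile scaling −0.16, and after rescaling to TPM it was 0.0163 for Mx2. The causes were not tested. The 9 untested members rest on few reads.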

Other observations

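These genes of the class I and class II region, outside the member list, were chosen after their values were seen. H2-Ea-ps, named in GENCODE M21 as a pseudogene of the I-E alpha chain, was at 8.92, 1.12 and 0.0550 FPKM with SS18-SSX1 and 0.0664, 0 and 0 FPKM with SS18-SSX2. It was highest in SS18-SSX1 tumor 1, where most class II members were lowest. The mouse strain is not given, so whether that name holds for these mice is not known. H2-Q10, a nonclassical class I gene, was at 1.90, 0.0334 and 0.0262 FPKM with SS18-SSX1 and 0, 0.0316 and 0.0160 FPKM with SS18-SSX2, also highest in SS18-SSX1 tumor 1.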
